A study of Xenopus laevis with 12 samples.

Results

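The genes described here are those of prolactin, pro-opiomelanocortin (POMC) and the subunits of thyrotropin in the brain of the tadpole of Xenopus laevis, the African clawed frog. They were found by their symbols, and all 7 were present among the 37018 gene numbers counted: prl.2.S (gene number 108697263), pomc.L (380532), pomc.S (373802), cga.L (432256), cga.S (378681), tshb.L (108707690) and tshb.S (100381085). Xenopus laevis is allotetraploid, so that many genes occur as a pair of copies, .L and .S, one from each ancestral genome. RNA was sequenced from whole brains in 12 libraries, 3 in each of 4 groups: thioridazine at Nieuwkoop-Faber stage (NF) 45, control at NF 45, thioridazine at NF 47 and control at NF 47. Per the labels, exposed embryos spent NF 14 to NF 26 in 90 µM thioridazine, a phenothiazine drug that binds dopamine receptors and blocks them. Both groups were held at 18 °C in that window and at 14 °C before and after it. Controls are labelled wild type, and the labels name no vehicle and no genetic change in any group. Brains were taken from tadpoles before metamorphosis, and the exposed ones are described as having drug-induced brain abnormalities. The labels do not say how many brains or clutches a library holds, and p-values below measure only the spread between these libraries, which may be technical in part.

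The pituitary makes its hormones in separate cell types. Lactotropes make prolactin, a hormone of salt and water balance that is also known for its action against metamorphosis in amphibians. Corticotropes of the anterior lobe and melanotropes of the intermediate lobe both express POMC, and cut it into adrenocorticotropic hormone or into melanocyte-stimulating hormone, which darkens frog skin. Thyrotropes make thyrotropin from a common alpha subunit, encoded by cga and shared with the gonadotropins, and a beta subunit of its own, encoded by tshb. Dopamine from the hypothalamus acts through the D2 receptor and holds back both prolactin release and melanotropes, while thyrotropin-releasing hormone and corticotropin-releasing hormone stimulate their targets.

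Total counts lay between 12843954 and 18164871 per library, and each of the 7 genes passed the filter that left 26570 genes for testing. The NF 45 libraries differed among themselves in reads of tissue around the brain. Only 2 genes of the skin marker list were found, itln1.L and otog.L. They summed to 1040, 1.78 and 142 CPM (read counts scaled to the library total) in thioridazine libraries 1, 2 and 3, against 384, 4.55 and 238 CPM in controls. Most of the high sums came from itln1.L, at 1030 CPM in thioridazine library 1 and 380 CPM in control library 1. The libraries numbered 2 were the lowest in skin and the highest in muscle markers in both groups, and some fits below leave out both of them. No fit left out both libraries of another number, although other NF 45 libraries also stood apart in their markers. Control library 3 held the most liver and gut markers, at 1250 CPM, where control libraries 1 and 2 had 583 and 582 CPM. Of these sums rbp4.S alone gave 631, 576 and 578 CPM, and it lay between 543 and 795 CPM in all 12 libraries. Lens and retina markers summed to 328 CPM in control library 3 and 289 CPM in thioridazine library 1. In the other NF 45 libraries they summed to between 28.7 and 45.5 CPM. Brain markers summed to between 1050 and 1150 CPM in thioridazine and between 1030 and 1270 CPM in controls at NF 45, and to between 1180 and 1420 CPM in thioridazine and between 1370 and 1440 CPM in controls at NF 47. In whole-brain RNA, fewer hormone cells and less hormone RNA per cell cannot be told apart.

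The presence of pituitary in the brains was checked against its other hormones and factors. Growth hormone was well covered, with gh1.S at 20.7 ± 9.49 CPM in thioridazine and 31.6 ± 8.95 CPM in controls at NF 47 (SD, n = 3 each). The pituitary factor pou1f1.L, which lactotropes, thyrotropes and growth hormone cells need in mammals, had between 1 and 15 reads in a library and 98 in all. The first prolactin gene was almost absent, with 0 to 4 reads of prl.1.L and 0 to 1 read of prl.1.S. The gonadotropin beta subunits fshb.S, fshb.L and lhb.L had at most 5, 3 and 3 reads and did not pass the filter. Prolactin is therefore represented by prl.2.S alone, and these counts do not show in which cells of the brain or pituitary prl.2.S was transcribed.

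The question at each stage was how the hormone genes of exposed tadpoles differed from those of controls of the same age. Prolactin was the member that stood out, and did so at NF 47, where prl.2.S had 32.0, 47.6 and 27.9 CPM in the thioridazine libraries numbered 1, 2 and 3, against 12.7, 18.3 and 14.3 CPM in the controls. Every exposed library lay above every control library. These levels came from 499, 653 and 411 reads in thioridazine and 213, 277 and 204 reads in controls. The means were 35.8 ± 10.4 CPM in thioridazine and 15.1 ± 2.86 CPM in controls (SD, n = 3 each). The log2 fold change was 1.24 ± 0.245 (standard error; 95% interval 0.71 to 1.78), or 2.37-fold.

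At NF 45 the prl.2.S groups overlapped. The thioridazine libraries held 18.6, 11.8 and 20.0 CPM, against 11.7, 15.1 and 15.2 CPM in the controls. The low exposed library was the one numbered 2, which stood apart in its tissue markers. Means were 16.8 ± 4.39 CPM in thioridazine and 14.0 ± 2.04 CPM in controls (SD, n = 3 each), and the log2 fold change of 0.26 ± 0.245 had a 95% interval of -0.28 to 0.79. Without both NF 45 libraries numbered 2, the log2 fold change of prl.2.S was 0.54, with an adjusted p of 0.962 in edgeR. These libraries formed the only pair with less prl.2.S in the exposed library. Leaving out any 1 of the 12 libraries gave values between 0.11 and 0.47.

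**Figure D1:**
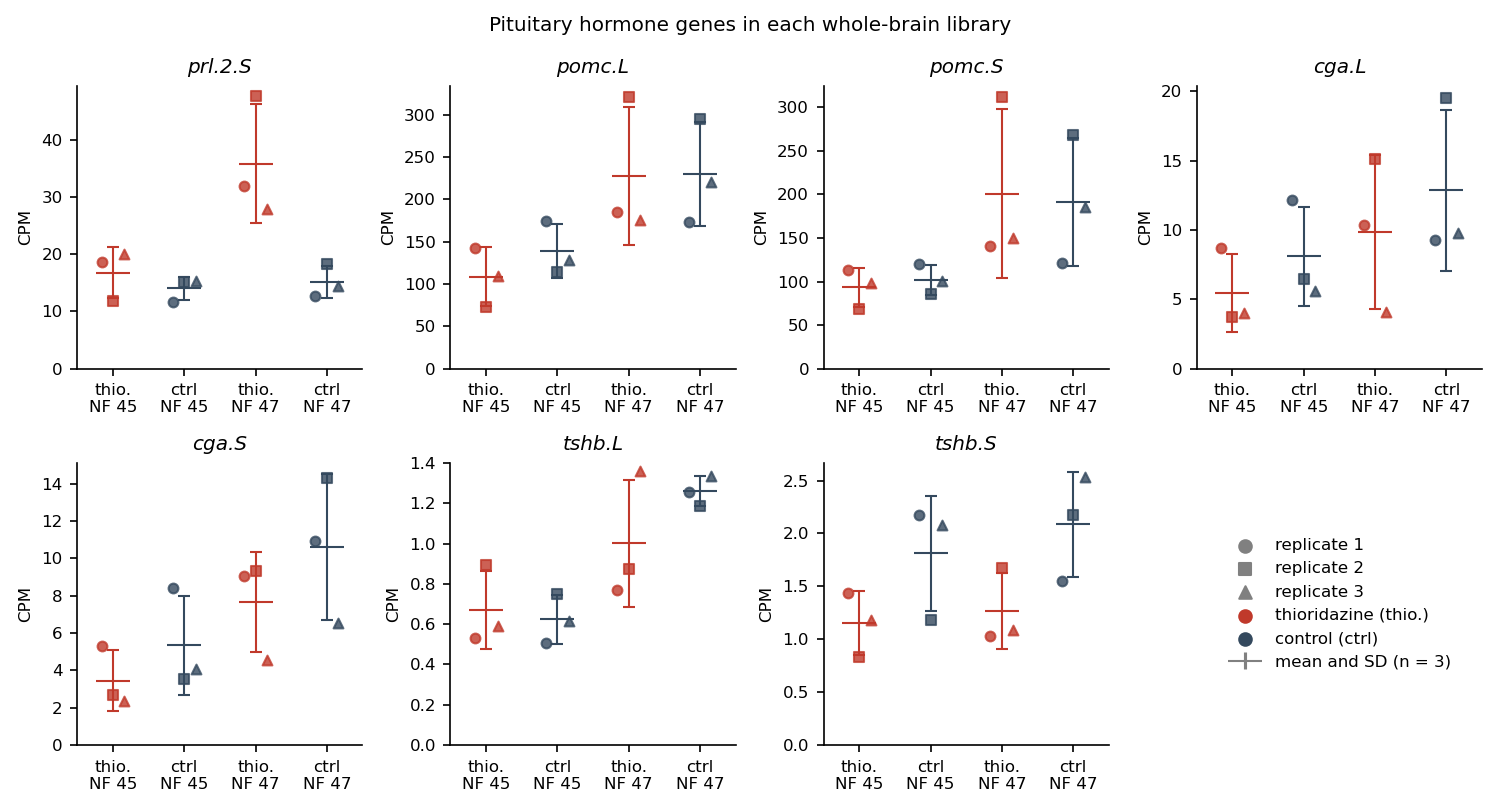
Level of each hormone gene in every library, in CPM on a linear axis, by group; symbols mark replicates 1, 2 and 3, and bars give the mean and SD of 3 libraries. For prl.2.S the 3 thioridazine libraries at NF 47 lie between 27.9 and 47.6 CPM, above the 3 controls at 12.7 to 18.3 CPM, while in the other 6 panels the groups of a stage overlap.

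In edgeR's quasi-likelihood test, prl.2.S had the smallest unadjusted p of all 26570 genes at NF 47, 0.000282, and an adjusted p of 1 by Benjamini and Hochberg. That test called 0 of the 7 genes at NF 47 and 0 of all genes (0%), where 291 genes had an unadjusted p under 0.05, prl.2.S the only member among them. DESeq2 called 1 gene (0.00377% of those tested), and it was prl.2.S, with an adjusted p of 0.0472. This call lay at the threshold: without the prior filter on low counts DESeq2 gave prl.2.S an adjusted p of 0.0595 and called 0 genes, in a fit added after the data were seen. Limma-voom with quality weights called 0 genes and gave it an adjusted p of 0.715.

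Libraries with the same number within a stage deviated together, so the difference was also fitted within these pairs. The blocked log2 fold change of prl.2.S at NF 47 was 1.23 ± 0.171, with an adjusted p of 0.205 in edgeR. That fit called 1 of all genes at NF 47 (0.00376%) and none of the 7 members, of which prl.2.S, at a p of 1.54e-05, had the lowest p. It gave 1157 genes an unadjusted p under 0.05 at NF 47, 3 members among them. Besides prl.2.S these were cga.S (0.0146) and tshb.S (0.0391), both lower in exposed brains. Without both NF 45 libraries numbered 2, the blocked edgeR fit called prl.2.S at NF 47, with an adjusted p of 0.0131, among 0.0112% of all genes. The NF 47 difference uses no NF 45 library, and was 1.23 with and without them. They enter it only through the filter, the scaling and the shared estimate of spread. DESeq2 with the pairs as a block, a fit added after the data were seen, also called prl.2.S. Its adjusted p there was 2.34e-05, among 0.0383% of the genes tested. Without the filter on low counts that blocked DESeq2 fit called 0.0492% of genes, again with prl.2.S, at an adjusted p of 3.69e-05. In separate pairs, prl.2.S was higher in exposed libraries by 1.32, 1.37 and 0.95 on the log2 scale at NF 47. At NF 45 the pair differences were 0.67, -0.36 and 0.39, so that exposed tadpoles had the higher value in 5 of 6 pairs. The share of all genes with 5 of 6 was not computed.

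Leaving out any 1 of the 12 libraries left the NF 47 difference of prl.2.S between 1.00 and 1.40, with an adjusted p of 1 in edgeR each time. Non-overlapping groups with the exposed side higher were seen for 3.81% of all genes at NF 47, and for 1 of the 7 members. The reverse order was seen for 3.55% of all genes and for no member. Muscle markers summed to between 589 and 980 CPM in thioridazine and between 264 and 736 CPM in controls at NF 47, and lens and retina markers to between 36.5 and 76.8 CPM in thioridazine and between 30.5 and 43.7 CPM in controls. All 10 tested muscle genes (median log2 fold change 0.69) and all 5 tested lens and retina genes (median 0.94) had positive fitted values. The lens and retina sums of exposed libraries 1 and 2, 38.1 and 36.5 CPM, lay within the control range, and only library 3 lay above it. There rho.L had 18.5 CPM and rho.S 12.3 CPM, against under 1 CPM for each in exposed libraries 1 and 2. The median over all genes was 0, and edgeR called none of these markers. The exposed library with the most prl.2.S, number 2, had the lowest lens and retina, muscle and skin sums of its group. Its liver and gut sum was the highest, at 749 CPM, against 673 and 625 CPM in libraries 1 and 3. The part of the other tissues in the result was not tested.

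The question whether prolactin differed more at the later stage was put to the difference between the stage effects. The thioridazine effect on prl.2.S was larger at NF 47 than at NF 45 by 0.99 ± 0.345 on the log2 scale (95% interval 0.23 to 1.74). Its unadjusted p was 0.0145 and its adjusted p 1 in edgeR, which called 0 of all genes for this difference, with 91 at an unadjusted p under 0.05. DESeq2 and limma-voom also called 0. With the pairs as a block the value was 1.00 ± 0.245 and the unadjusted p 0.00174, again with an adjusted p of 1 in edgeR. Without both NF 45 libraries numbered 2 the prl.2.S value was smaller, at 0.71, or 0.69 with the block. Limma-voom on all 12 libraries gave 0.56. Blocked DESeq2 without the filter called 0.0176% of genes for this difference and none of the 7. Averaged over both stages, prl.2.S was higher in exposed brains by 0.75 ± 0.173 (95% interval 0.37 to 1.13), or 1.68-fold, with an adjusted p of 1 in edgeR. With the block the averaged value was 0.73 ± 0.123 and the adjusted p 0.0736, close to the threshold, in a fit that called 25 of all genes (0.0941%) and 0 of the 7. Without both NF 45 libraries numbered 2, that blocked edgeR fit gave 0.89 with an adjusted p of 0.0106, among 0.0559% of genes called. It thereby left out the only pair in which the exposed library had less prl.2.S. DESeq2 gave an adjusted p of 0.0454, again at the threshold. Without the prior filter on low counts it gave 0.0587, in a fit that called 0.0736% of the genes tested and none of the 7. With the block DESeq2 called 0.294% of the genes it tested, prl.2.S among them with an adjusted p of 0.000478, and without the filter 0.298%, where its adjusted p was 0.000673.

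The POMC genes had overlapping groups at both stages. At NF 47, pomc.L stood at 185, 321 and 176 CPM in thioridazine, against 173, 295 and 221 CPM in controls. The copy pomc.S stood at 141, 313 and 150 CPM in thioridazine, against 121, 268 and 186 CPM in controls. The high values belong to the libraries numbered 2 in both groups, and the groups overlap throughout. The log2 fold changes were -0.01 ± 0.304 (95% interval -0.68 to 0.66) for pomc.L and 0.07 ± 0.351 (95% interval -0.71 to 0.85) for pomc.S. Both intervals reach well to either side of 0, so this fit, which does not use the pairs, detected no POMC difference. In that fit each sign also turned with 1 library left out. The values went up to 0.20 for pomc.L without control replicate 2 and down to -0.39 for pomc.S without thioridazine replicate 2. With the pairs as a block the values were -0.03 ± 0.116 for pomc.L and 0.04 ± 0.116 for pomc.S. The blocked edgeR fit gave them unadjusted p of 0.77 and 0.706.

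At NF 45, pomc.L had 143, 73.1 and 109 CPM in thioridazine, against 174, 114 and 128 CPM in controls. The values of pomc.S were 113, 68.9 and 97.9 CPM in thioridazine, against 120, 85.8 and 100.02 CPM in controls. Here the libraries numbered 2 were the lowest of each group, and in each of the 3 pairs both copies were lower in the exposed library. The pair differences were -0.29, -0.65 and -0.23 on the log2 scale for pomc.L and -0.09, -0.31 and -0.03 for pomc.S. The fitted log2 fold changes, -0.36 ± 0.305 for pomc.L and -0.13 ± 0.352 for pomc.S, each had an adjusted p of 1 in edgeR. In that fit the sign of the pomc.S value turned without control replicate 1 (0.0067) or thioridazine replicate 2 (0.0513). With the pairs as a block the values were -0.39 ± 0.118 for pomc.L and -0.14 ± 0.117 for pomc.S, with adjusted p of 0.656 and 0.904 in edgeR.

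Both copies of the alpha subunit gene and tshb.S were lower in the exposed library in 5 or 6 of 6 pairs, and tshb.L in 3, and edgeR called none of these genes. At NF 45, cga.L had 8.72, 3.68 and 4.02 CPM in thioridazine, against 12.2, 6.48 and 5.62 CPM in controls. The copy cga.S had 5.31, 2.68 and 2.37 CPM in thioridazine, against 8.40, 3.55 and 4.08 CPM in controls. Replicate 1 was the highest in both groups, so the groups overlap although each exposed library lay below its same-numbered control.

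At NF 47, cga.L had 10.4, 15.1 and 4.08 CPM in thioridazine, against 9.26, 19.5 and 9.78 CPM in controls. The copy cga.S had 9.04, 9.33 and 4.55 CPM in thioridazine, against 10.9, 14.3 and 6.54 CPM in controls. The thioridazine library numbered 3 was the lowest for both copies, and the groups overlap. Over both stages, cga.S was lower in the exposed library in 6 of 6 pairs and cga.L in 5 of 6. Of all genes 3.19% were lower and 3.11% higher in all 6, and the share for 5 of 6 was not computed. The averaged log2 fold changes were -0.48 ± 0.366 for cga.L and -0.56 ± 0.31 for cga.S, with an adjusted p of 1 in edgeR. With the pairs as a block, cga.S stood at -0.54 ± 0.123 with an adjusted p of 0.188 in edgeR, and cga.L had an adjusted p of 0.366.

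The beta subunit genes rested on few reads, between 7 and 36 in a library. The copy tshb.S had 1.44, 0.837 and 1.18 CPM in thioridazine, against 2.17, 1.18 and 2.08 CPM in controls at NF 45. At NF 47 it had 1.03, 1.68 and 1.09 CPM in thioridazine, against 1.55, 2.18 and 2.53 CPM in controls. It was lower in the exposed library in 6 of 6 pairs, and the groups of each stage overlap. Its averaged log2 fold change was -0.69 ± 0.26 (95% interval -1.25 to -0.12), with an unadjusted p of 0.0219 and an adjusted p of 1 in edgeR. With the block the adjusted p was 0.399.

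The copy tshb.L did not share this pattern. It had 0.531, 0.892 and 0.591 CPM in thioridazine, against 0.507, 0.748 and 0.616 CPM in controls at NF 45. At NF 47 it had 0.769, 0.875 and 1.36 CPM in thioridazine, against 1.25, 1.19 and 1.34 CPM in controls. Exposed libraries were higher in 3 pairs and lower in 3. Counts of both copies summed gave an averaged log2 fold change of -0.49 ± 0.185 (95% interval -0.89 to -0.09), with an adjusted p of 1 in edgeR. For the 6 genes other than prl.2.S, the unadjusted p of the difference between the stage effects lay between 0.425 and 0.895 in edgeR. With the pairs as a block it lay between 0.0541, for pomc.L at 0.35 ± 0.165, and 0.854, for tshb.S.

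**Figure D2:**
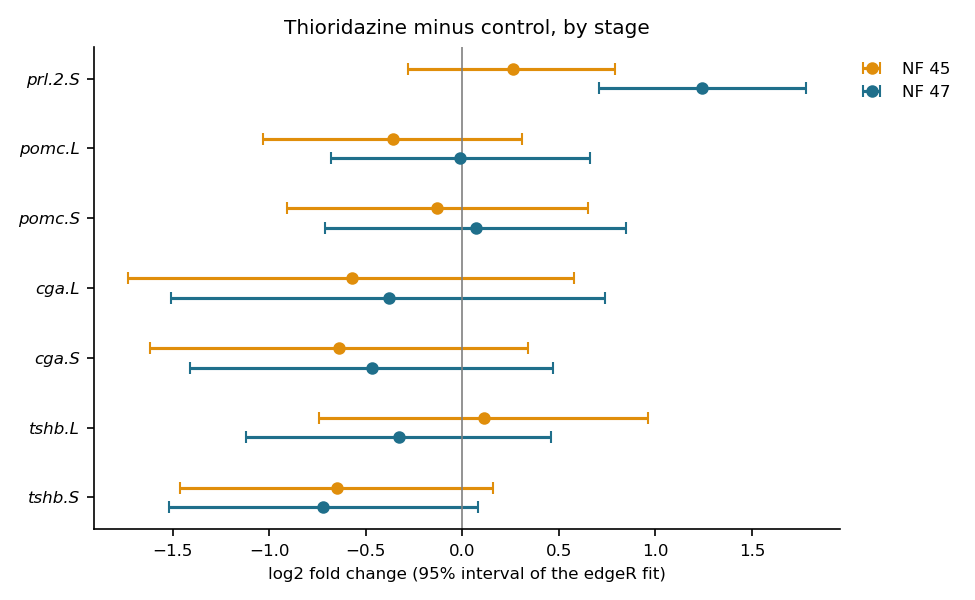
Log2 fold change of thioridazine over control for the 7 genes at NF 45 and at NF 47, with 95% intervals from the edgeR fit of 12 libraries. The NF 47 interval of prl.2.S, 0.71 to 1.78, lies clear of 0. The other intervals include it, and no adjusted p was under 0.05.

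**Figure D3:**
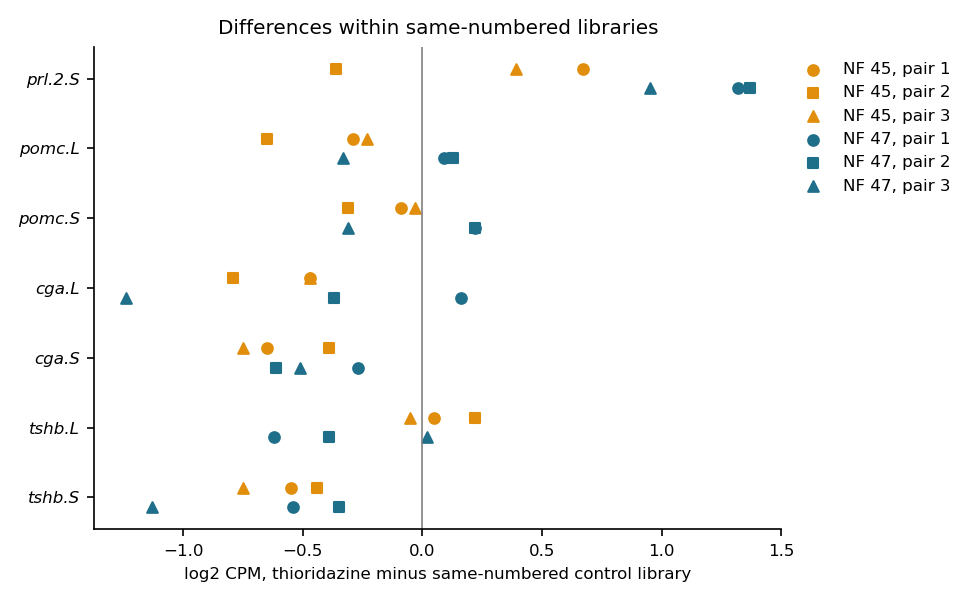
Difference in log2 CPM between each thioridazine library and the control library of the same number and stage, for the 7 genes. For prl.2.S 5 of 6 pairs lie above 0, while for cga.S and tshb.S all 6 lie below 0.

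At NF 45 edgeR called 0 of the 7 genes and 0 of all genes (0%), with 526 genes and none of the 7 at an unadjusted p under 0.05. DESeq2 called 9 genes there (0.0339% of those tested), limma-voom 0 and the blocked edgeR fit 6 (0.0226%), none of them a member. In that blocked fit 1521 genes had an unadjusted p under 0.05, 3 members among them. These were pomc.L (0.00639), cga.L (0.0267) and cga.S (0.00531), with adjusted p of 0.656, 0.84 and 0.621. DESeq2 called 0.0345% without the filter on low counts, 0.132% with the block and 0.17% with the block and no filter, in each case no member. The groups of none of the 7 genes were separate at NF 45, against 2.43% of all genes with separate groups and higher values in thioridazine and 1.56% with lower values. In the average over both stages, edgeR called 0 of the 7 and 0 of all genes (0%), with 783 genes at an unadjusted p under 0.05, among them prl.2.S and tshb.S. DESeq2 called 28 genes in this average (0.106% of those tested), of which prl.2.S was the only member. With the block, edgeR had 2441 genes at an unadjusted p under 0.05 in the average. Among them were 5 members, all but pomc.S and tshb.L, with adjusted p between 0.0736 and 0.48.

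The share of reads that fell on each copy was followed as a second measure, since it does not depend on the scaling of libraries. The .L copy took 55.9%, 51.5% and 52.6% of POMC reads in thioridazine at NF 45, against 59.2%, 57.2% and 56.1% in controls. The highest exposed library, with an exact 95% binomial interval of 54.2 to 57.5%, and the lowest control, with 54.3 to 57.9%, differed by less than counting error. At NF 47 the shares were 56.8%, 50.7% and 54.0% in thioridazine, against 58.8%, 52.4% and 54.3% in controls, so that in all 6 pairs the exposed library had the smaller .L share. Of 6892 genes with both copies tested, 2.68% had the smaller .L share in the exposed library of all 6 pairs, and 2.77% had separate groups at NF 45 with the exposed side lower. The group means were 53.3 ± 2.29% in thioridazine and 57.5 ± 1.57% in controls at NF 45, and 53.8 ± 3.05% in thioridazine and 55.2 ± 3.29% in controls at NF 47 (SD, n = 3 each). No test was run on this share, and intervals cover counting error only. The sources used here do not say how reads that match both copies were counted.

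The .L share of cga was smaller in the exposed library in 2 of 6 pairs. Its mean was 61.0 ± 2.74% in thioridazine and 60.6 ± 3.55% in controls at NF 45, and 54.2 ± 7.32% in thioridazine and 54.5 ± 7.53% in controls at NF 47 (SD, n = 3 each). For tshb the .L share was larger in the exposed library in all 3 pairs at NF 45 and in 1 of 3 at NF 47. It was 37.3 ± 12.8% in thioridazine and 26.8 ± 10.5% in controls at NF 45, and 44.3 ± 10.7% in thioridazine and 38.2 ± 5.67% in controls at NF 47 (SD, n = 3 each). With so few tshb reads the share of single libraries had wide intervals, such as 7.96 to 35.2% in control replicate 1 at NF 45.

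Ratios between hormone genes within a library were taken next, because a ratio of reads does not depend on the total of the library. The ratio of prl.2.S reads to summed pomc reads at NF 47 was 0.0982, 0.0751 and 0.0856 in thioridazine, against 0.0432, 0.0325 and 0.0353 in controls. The groups are separate, by 1.22 on the log2 scale, with a two-sided exact permutation p of 0.1, the smallest that 3 against 3 libraries allow. Taken against the same pomc reads, 0.474% of all genes had separate groups with the exposed side higher. At NF 45 this ratio was 0.0726, 0.0829 and 0.0967 in thioridazine, against 0.0396, 0.0757 and 0.0669 in controls. The groups overlap there (4.59% of all genes were separate against pomc with the exposed side higher), and the log2 difference of 0.51 had an exact permutation p of 0.2.

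The ratio of prl.2.S to summed cga reads behaved likewise. Its log2 difference was 1.70 at NF 47, with separate groups (2.54% of all genes against cga) and an exact permutation p of 0.1, and 0.84 at NF 45 (1.82% of all genes separate with the exposed side higher), with an exact permutation p of 0.3. Against gh1.S, the ratio of prl.2.S was 1.66, 1.54 and 2.32 in thioridazine and 0.447, 0.439 and 0.585 in controls at NF 47. At NF 45 it was 1.17, 1.52 and 3.16 in thioridazine and 0.414, 0.723 and 0.961 in controls. Both stages have separate groups, as 10.7% of all genes had against gh1.S at NF 47 and 38.2% at NF 45, each with an exact permutation p of 0.1, but gh1.S itself was lower in exposed brains, by a log2 fold change of -1.13 ± 0.414 at NF 45 and -0.61 ± 0.403 at NF 47 (adjusted p of 1 in edgeR, and 0.0338 at NF 45 with the block). The other ratios overlapped: tshb to cga differed by 0.20 at NF 45 and -0.08 at NF 47, with exact permutation p of 0.7 and 0.9, and pomc to cga by 0.33 and 0.48, with exact permutation p of 0.5 and 0.2. These tests do not use the pairs. Within pairs, the exposed library had the higher ratio in 6 of 6 for prl.2.S over pomc, as for 3.59% of all genes set against pomc. The count was also 6 of 6 for prl.2.S over cga and for pomc over cga, as for 45.1% of all genes set against cga, and for prl.2.S over gh1.S, as for 80% of all genes set against gh1.S. It was 4 of 6 for tshb over cga. Adjusted by Benjamini and Hochberg over these 10 comparisons, the smallest of these exact permutation p was 0.25.

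**Figure D4:**
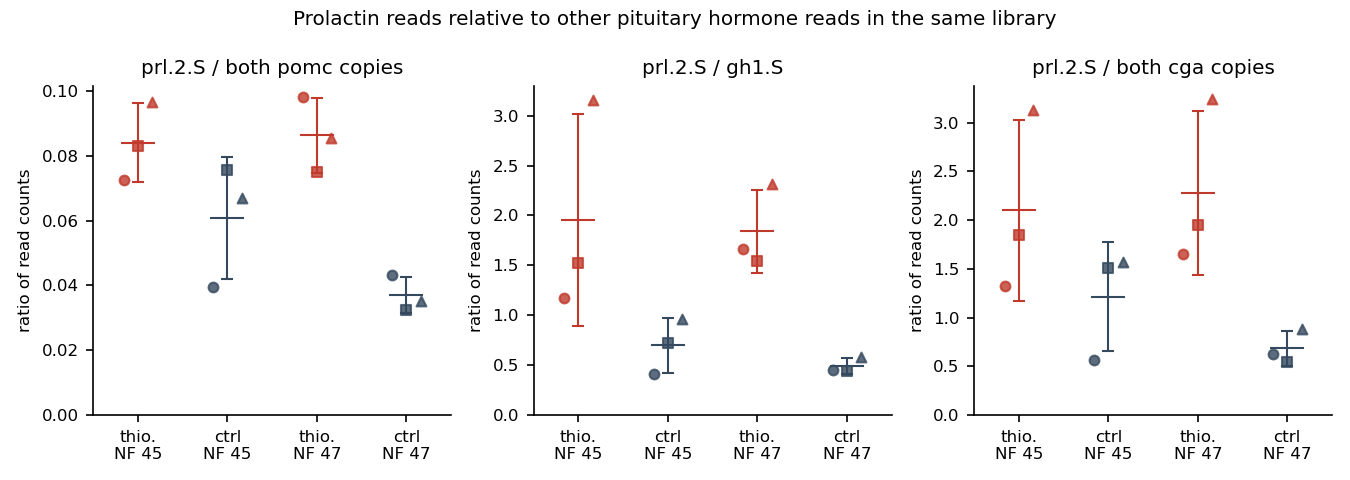
Ratio of prl.2.S reads to the reads of both pomc copies, of gh1.S and of both cga copies in the same library, by group, with replicate symbols and mean and SD of 3 libraries. The counts do not show in which cells prl.2.S was transcribed. At NF 47 the thioridazine ratios to pomc lie between 0.0751 and 0.0982, above the controls at 0.0325 to 0.0432, and those to gh1.S lie between 1.54 and 2.32, above the controls at 0.439 to 0.585.

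The second axis of the design was stage, asking how the hormone genes changed between NF 45 and NF 47 within each treatment. In thioridazine, DESeq2 called 3 of the 7 genes higher at NF 47, prl.2.S, pomc.L and pomc.S. It called 1.73% of the 15742 genes to which it gave an adjusted p, in either direction. It gave none to cga.S, tshb.L and tshb.S, so these could not be called. For the 3 called genes the adjusted p in DESeq2 was 0.00773 for prl.2.S, 0.0266 for pomc.L and 0.0460 for pomc.S. Their log2 fold changes were 1.09, 1.07 and 1.10. Without the filter on low counts DESeq2 called the same 3 members, among 1.69% of genes tested. EdgeR gave the same sizes, 1.10 ± 0.244 for prl.2.S, 1.07 ± 0.308 for pomc.L and 1.11 ± 0.356 for pomc.S, with adjusted p of 0.282, 0.335 and 0.377. It called 0 of the 7 and 0 of all genes (0%), with 2560 genes at an unadjusted p under 0.05, including these 3 and cga.S. Without both NF 45 libraries numbered 2, edgeR called 0 of the 7 in either treatment, and those with an unadjusted p under 0.05 numbered 2 in thioridazine, prl.2.S and pomc.L, and 1 in controls, tshb.L. The prl.2.S value in thioridazine was then 0.92, with an adjusted p of 0.104. Limma-voom called 1 gene, no member. The groups of the same 3 members did not overlap between the stages, as for 7.35% of all genes with higher and 5.98% with lower values at NF 47.

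In controls the stage difference of prl.2.S was small, with 12.7, 18.3 and 14.3 CPM at NF 47, against 11.7, 15.1 and 15.2 CPM at NF 45. Its log2 fold change of 0.11 ± 0.246 had a 95% interval of -0.43 to 0.64, and its sign turned without control replicate 1 of NF 45 (-0.0064) or control replicate 2 of NF 47 (-0.0261). The POMC copies were higher at NF 47 by 0.73 ± 0.306 for pomc.L and 0.91 ± 0.354 for pomc.S. Their means in controls were 229.6 ± 61.2 and 192 ± 73.7 CPM at NF 47, against 139 ± 31.4 and 102 ± 17.2 CPM at NF 45 (SD, n = 3 each). None of the 7 was called in controls by edgeR, which called 0 of all genes (0%) with 2965 at an unadjusted p under 0.05, among them pomc.L, pomc.S, cga.S and tshb.L. Limma-voom, which called 888 genes in controls (3.34% of those tested), also called none of the 7. DESeq2 called 420 genes in controls (2.29% of the 18313 given an adjusted p) and no member. It gave tshb.L and tshb.S no adjusted p there, so these could not be called. Without the filter DESeq2 called 2.16% and no member.

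The fitted stage differences of the glycoprotein hormone genes were positive, but that of tshb.S changed sign under some alternatives. In thioridazine, cga.L differed by 0.86 ± 0.523 and cga.S by 1.16 ± 0.445 between NF 47 and NF 45, and in controls by 0.67 ± 0.514 and 0.99 ± 0.436. For tshb.L the values were 0.56 ± 0.376 in thioridazine and 1.00 ± 0.377 in controls. For tshb.S they were 0.14 ± 0.375 in thioridazine and 0.21 ± 0.36 in controls, the smallest in each group save for prl.2.S in controls. The tshb.S value in thioridazine was -0.14 with limma-voom, -0.0330 and -0.0849 without thioridazine replicate 2 of NF 45 or of NF 47, and -0.0277 without both NF 45 libraries numbered 2. In controls it was -0.0154 without control replicate 2 of NF 45. Within controls only tshb.L and pomc.S had separate stage groups, 2 of 7 members, against 9.83% of all genes with higher and 8.62% with lower values at NF 47.

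**Figure D5:**
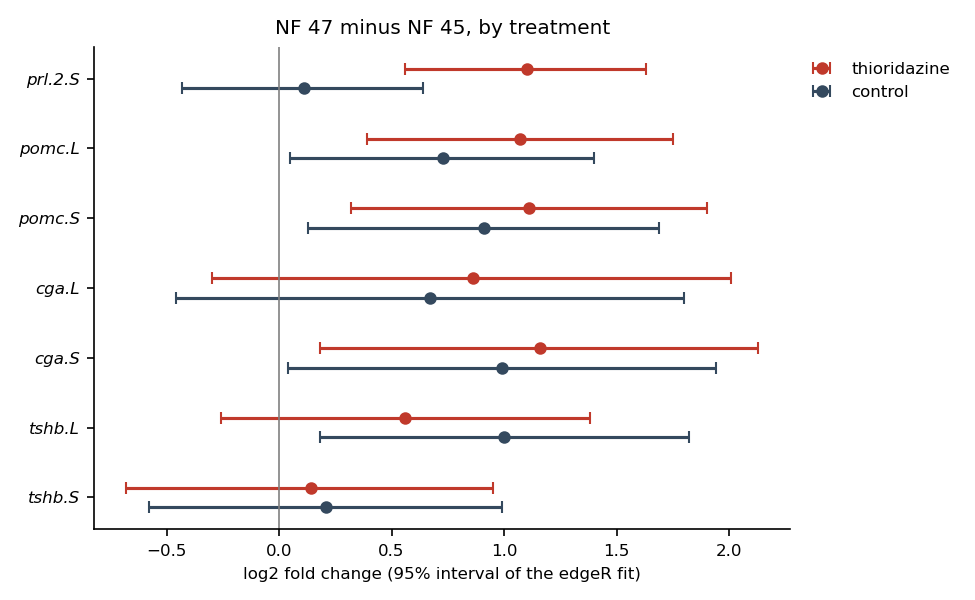
Log2 fold change of NF 47 over NF 45 within thioridazine and within control for the 7 genes, with 95% intervals from the edgeR fit. The value of prl.2.S is 1.10 in thioridazine and 0.11 in controls, while those of pomc.L and pomc.S lie between 0.73 and 1.11 in both.

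How the 7 genes varied together was described by the Pearson correlation of log2 CPM over the 12 libraries, which share their stage and treatment groups. The POMC copies followed each other at r = 0.97, and each was the gene most like the other among all genes tested. The cga copies had an r of 0.91, and POMC with cga copies had values from 0.74 to 0.85. The tshb copies had an r of 0.07 with each other, at read numbers where counting error is large. Prolactin had an r of 0.21 to 0.22 with the cga copies, 0.10 with tshb.L and -0.20 with tshb.S, and reached 0.53 with pomc.L and 0.61 with pomc.S.

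Growth hormone followed most of the 7 genes, but not all. The correlation with gh1.L, gh1.S and gh2.S was 0.89 to 0.92 for cga.L, 0.90 to 0.91 for cga.S and 0.80 to 0.87 for pomc.L. It was 0.68 to 0.76 for pomc.S and 0.66 to 0.72 for tshb.S, but 0.27 to 0.32 for tshb.L and 0.08 to 0.17 for prl.2.S. The genes most like prl.2.S outside the 7 were itgbl1.S (r = 0.885), pebp1.2.S (0.827) and cpq.L (0.812). Those most like cga.L were gh1.L (0.919), gh1.S (0.914) and krt61.S (0.911), and those most like cga.S were rnf182.L (0.934), smim11a.S (0.915) and gh1.L (0.914). For pomc.L they were rrad.S (0.957), tmem35b.S (0.929) and calb2.L (0.913), and for pomc.S ccn1.L (0.946), tmem35b.S (0.93) and pitpnb.2.S (0.912). For tshb.L they were prkag3.L (0.93), ndst2.L (0.917) and myrip.S (0.905), and for tshb.S mthfd2.L (0.886), vamp5.S (0.876) and gpr160.S (0.858). Each was picked as the highest among all genes tested, and no p is given.

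The hypothalamic peptides and enzymes that act on these cells formed the first of the lists around the members. Of 33 tested genes, 29 were higher in exposed brains at NF 45 (median log2 fold change 0.30, beside 0 over all genes), and 21 were higher at NF 47, with a median of 0.08. EdgeR called none at either stage, with 11 and 2 at an unadjusted p under 0.05, where 526 and 291 of all 26570 genes had such a p. DESeq2 called 1 at NF 45, where it called 0.0339% of all genes tested, and 0 at NF 47. Many of the 33 are .L and .S copies of the same gene, so they are not independent. The lowest p values at NF 45 belonged to gnrh2.L, a gonadotropin-releasing hormone gene of the midbrain, oxt.S, of the oxytocin family, and avp.S, of the vasopressin family. The last stood at 11.3 ± 1.45 CPM in thioridazine and 7.18 ± 0.897 CPM in controls (SD, n = 3 each), a log2 fold change of 0.65 ± 0.184. At NF 47 avp.S had similar levels, 11.4 ± 2.08 CPM in thioridazine and 13.1 ± 1.51 CPM in controls (SD, n = 3 each).

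Among the stimulators and inhibitors of prolactin, POMC and thyrotropin cells, trh.S and both th copies had higher means in exposed brains at NF 45. They belong to the 29 of 33 tested genes of the list that were higher there, and edgeR called none of them. For thyrotropin-releasing hormone, trh.S stood at 70.5 ± 10.4 CPM in thioridazine and 51.2 ± 17.6 CPM in controls at NF 45, and at 93.6 ± 19.0 CPM in thioridazine and 86.1 ± 14.2 CPM in controls at NF 47 (SD, n = 3 each). For corticotropin-releasing hormone, crh.S differed by 0.07 at NF 45 and 0.14 at NF 47 on the log2 scale. The gene of tyrosine hydroxylase, which starts dopamine synthesis, stood at 9.85 ± 1.55 CPM in thioridazine and 6.65 ± 1.65 CPM in controls at NF 45 for th.L, and at 6.42 ± 0.119 CPM in thioridazine and 4.41 ± 1.12 CPM in controls for th.S (SD, n = 3 each). Their log2 fold changes at NF 45 were 0.56 ± 0.201 for th.L and 0.54 ± 0.258 for th.S, each with an adjusted p of 1 in edgeR. The th.S groups did not overlap there, with 6.29 to 6.53 CPM in thioridazine, against 3.46 to 5.65 CPM in controls. Groups separate in this direction at NF 45 were seen for 2.43% of all genes. At NF 47 the th.L levels were 11.3 ± 1.44 CPM in thioridazine and 10.4 ± 0.302 CPM in controls, and those of th.S were 6.17 ± 1.96 CPM in thioridazine and 6.02 ± 1.01 CPM in controls (SD, n = 3 each). No copy of th or of the dopamine D2 receptor gene drd2 was called at either stage. The D2 receptor levels at NF 47 were 14.3 ± 0.753 CPM in thioridazine and 13.4 ± 0.597 CPM in controls for drd2.L, and 13.5 ± 2.32 CPM in thioridazine and 13.3 ± 0.75 CPM in controls for drd2.S (SD, n = 3 each).

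The receptors through which these signals reach pituitary cells showed no common shift. Of 31 tested, 12 were higher in exposed brains at NF 45 and 11 at NF 47, with a median of -0.06 at both stages, and edgeR called none, with 1 at an unadjusted p under 0.05 at each stage. Those were vipr2.S, a receptor for vasoactive intestinal peptide, at -1.79 ± 0.494 at NF 45, and gnrhr2.S, a receptor for gonadotropin-releasing hormone, at 1.03 ± 0.468 at NF 47. Both had low levels. Mean vipr2.S was 0.362 CPM in thioridazine and 1.26 CPM in controls at NF 45, but 1.08 and 0.607 CPM at NF 47, the other direction. Mean gnrhr2.S at NF 47 was 0.722 CPM in thioridazine and 0.35 CPM in controls. DESeq2, limma-voom and the blocked fit called none of the 31 in these contrasts either.

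Transcription factors of pituitary development and identity numbered 30 tested, of which 17 were higher in exposed brains at NF 45 and 23 at NF 47, with medians of 0.07 and 0.13. EdgeR called none, with 3 and 2 at an unadjusted p under 0.05. Many of them also act elsewhere in the brain or head. The homeobox gene six3.S, needed for the forebrain and eye, had the lowest p at NF 47, at 54.9 ± 8.55 CPM in thioridazine and 41.4 ± 4.07 CPM in controls (SD, n = 3 each). The reads of pou1f1.L were 1, 9 and 2 in thioridazine and 7, 13 and 10 in controls at NF 45, and 6, 12 and 4 in thioridazine and 15, 14 and 5 in controls at NF 47. Its log2 fold change at NF 45 was -1.50 ± 0.699, with an adjusted p of 1 in edgeR. Each exposed library lay below its same-numbered control in CPM at both stages, as for 3.19% of all genes. The lhx3 copies of the same list did not share this. At NF 47 lhx3.L stood at 12.6 ± 0.811 CPM in thioridazine and 10.2 ± 0.478 CPM in controls (SD, n = 3 each). For lhx3.S the NF 47 levels were 7.2 ± 0.777 CPM in thioridazine and 5.52 ± 0.709 CPM in controls. At NF 45 the means were 10.3 and 9.14 CPM for lhx3.L, and 4.1 and 4.33 CPM for lhx3.S, in thioridazine and controls. Values of tbx19, the factor of POMC cells, were not analysed here.

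Genes that process prohormones and fill secretory granules were followed by stage as well as by treatment. Of 17 tested, 11 were higher in exposed brains at NF 45 and 5 at NF 47, with medians of 0.02 and -0.08, and edgeR called none, with 2 and 0 at an unadjusted p under 0.05. The gene pcsk2.L, of an enzyme that cuts POMC, stood at 181 ± 13.3 CPM in thioridazine and 204 ± 3.27 CPM in controls at NF 47 (SD, n = 3 each). Between stages all 17 were higher at NF 47 in controls, with a median of 0.50 beside -0.03 over all genes, and 16 in thioridazine, with a median of 0.34. This rise was not particular to the list. Of the 33 tested hypothalamic genes, 32 were higher at NF 47 in controls (median 0.65) and 29 in thioridazine (median 0.34). EdgeR called 0 of the 17 in either stage contrast. DESeq2 called 5 in thioridazine and 10 in controls, where it called 1.73% and 2.29% of all genes tested, and limma-voom called 0 in thioridazine and 9 in controls (0.00376% and 3.34% of all genes). The granule protein gene chga.S had the smallest p of the list in both, though not the largest change, with 0.47 ± 0.0939 in thioridazine and 0.55 ± 0.0939 in controls. These genes are active in neurons throughout the brain.

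The last lists were receptors for prolactin and POMC peptides, with opioid receptors, and genes of thyroid hormone action. Values of the thyrotropin receptor were not analysed here. The oprk1 and oprl1 genes on the list encode opioid-family receptors whose main ligands come from other precursors than POMC. Of 19 tested genes of the receptor list, which also holds a receptor accessory protein gene, 13 were higher in exposed brains at NF 45 and 7 at NF 47. Their medians were 0.15 and -0.13. EdgeR called none and none had an unadjusted p under 0.05 at either stage. The prolactin receptor copies differed by 0.21 ± 0.257 for prlr.L and 0.32 ± 0.326 for prlr.S at NF 45, and by 0.04 ± 0.258 and -0.25 ± 0.327 at NF 47. The opioid receptor gene oprk1.S, whose product binds opioid peptides, had the lowest p at both stages, with 0.55 ± 0.292 at NF 45 and 0.56 ± 0.287 at NF 47. Of 18 genes of thyroid hormone action, which include its receptors and transporters, 6 were higher in exposed brains at NF 45 and 13 at NF 47, with medians of -0.11 and 0.08. EdgeR called none of these 18, DESeq2 and limma-voom called none, and none had an unadjusted p under 0.05.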

How the data were processed

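Raw read counts per gene were deposited by the authors as 1 table per library, with 37018 NCBI Gene numbers and no normalization. Tools named in the submitters' processing notes are HISAT2, HTSeq, Trimmomatic and DESeq2. Tool versions, build and strandedness of counting are not given in the sources used here. RNA-seq reads came from whole brains, and total counts lay between 12843954 and 18164871 per library. Symbols came from NCBI's RefSeq table of genes for a later assembly, which named 33597 of the numbers, holding 99.33% of reads, and was used for no coordinates. Reads of near-identical .L and .S copies may have been split between them, so values of single copies are uncertain.

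The analysis used edgeR 4.0.16 in R 4.3.3: filterByExpr on the 4 groups (26570 genes), TMM scaling (factors 0.932 to 1.09) and the robust quasi-likelihood F test in 1 fit of 12 libraries, with Benjamini-Hochberg adjustment over the tested genes. An adjusted p under 0.05 was called. The common biological coefficient of variation was 27.4%. CPM use scaled totals, log2 CPM a prior count of 2, and pair differences log2 CPM. Standard errors were derived from the F statistic. Alternatives were DESeq2 1.42.0, limma 3.58.1 (voom with quality weights), other scaling and filters, left-out libraries, summed copies and the replicate block. The code was tested on simulated counts. Exact permutation tests used scipy 1.17.1.

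Same-numbered thioridazine and control libraries deviated together from their group means, with correlations across genes of 0.575, 0.845 and 0.449 for the NF 45 pairs and 0.291, 0.318 and 0.54 for the NF 47 pairs. Each exceeds 0.1, so the numbers were taken to pair the samples within a stage; the pairing comes from the labels' replicate numbers and these correlations. The members, gene lists and tests were chosen with earlier results of these data known. Named are the 7 genes, up to 4 genes called per list and comparison or, where none was, up to 3 with the smallest p, the th, drd2 and pou1f1 genes, and the 3 genes most correlated with each member. Named outside that rule, after their values were seen, are trh.S, crh.S, prlr.L, prlr.S, lhx3.L, lhx3.S, gh1.S at NF 47, prl.1, fshb and lhb genes. One result that this rule would name is not reported here.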

Additional observations from a re-analysis of the deposited data

How the results depend on the processing

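Of 973 values of the 7 genes under 25 alternatives, 917 kept their direction and their side of the threshold, 42 turned sign and 14 passed the threshold. These counts do not measure robustness. The main fit called none of the 7 genes, so no value could lose a call. Many fits left out a library that the contrast does not use, and summed copies were counted for each copy. A missing adjusted p in DESeq2 was counted as not passing. Of the 42 gene results, 29 never turned sign, and those of prl.2.S for thioridazine never did. Every sign that turned belonged to a difference with an adjusted p over 0.05 before and after. In edgeR with all 12 libraries the replicate block changed no call among the 7 genes. Without both NF 45 libraries numbered 2 it added prl.2.S at NF 47 and in the average (adjusted p of 0.0131 and 0.0106). The blocked log2 fold change of prl.2.S at NF 47 was 1.23 with and without these libraries. The cause of the changes listed here was not tested.

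At NF 45 DESeq2 called 9 genes, with or without the filter on low counts, the replicate block within stage 6, DESeq2 with that block 35, and 49 without the filter. At NF 47 DESeq2 called 1, the block 1, the block without both NF 45 libraries numbered 2 gave 3, and DESeq2 with the block 8, with or without the filter. Averaged over stages, DESeq2 called 28, and 25 without the filter, the replicate block over all libraries 2, the block within stage 25, the block without both libraries numbered 2 gave 15, and DESeq2 with the block 75, or 78 without the filter. Between stages in controls, DESeq2 called 420, or 421 without the filter, limma-voom 888, the fit without both libraries numbered 2 gave 817, and the replicate block over all libraries 2. Between stages in thioridazine the counts were 273, or 263 without the filter, then 1, 3 and 1, and leaving out 1 library gave 0 to 1. For the difference between the stage effects, DESeq2 with the block and without the filter called 6.

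The log2 fold change of prl.2.S passed the threshold at NF 47 with DESeq2 (1.25), with the block without both libraries numbered 2 (1.23) and with DESeq2 and the block (1.23, with or without the filter). Averaged over stages the values were 0.75, 0.89, 0.73 and 0.73. Between stages in thioridazine, DESeq2 with and without the filter called prl.2.S (1.09 in both), pomc.L (1.07 in both) and pomc.S (1.10 in both).

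With both copies summed, the NF 45 value of tshb was -0.41 and the NF 47 value of pomc 0.0252, where tshb.L and pomc.L alone had the other sign. Limma-voom gave -0.26 for pomc.S at NF 47, -0.14 for tshb.S between stages in thioridazine and -0.12 for pomc.S in the difference between the stage effects. Without both libraries numbered 2, pomc.S averaged 0.0128, or 0.0017 with the block, and tshb.S differed between stages in thioridazine by -0.0277.

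Leaving out 1 library at a time gave these ranges. At NF 45 they were -0.29 to 0.0513 for pomc.S and -0.15 to 0.25 for tshb.L. At NF 47 they were -0.34 to 0.20 for pomc.L, -0.39 to 0.39 for pomc.S and -0.82 to 0.0462 for cga.L, where control replicate 2 turned the sign of cga.L. Averaged, pomc.S ranged from -0.26 to 0.13. Between stages in controls the range was -0.0261 to 0.22 for prl.2.S and -0.0154 to 0.38 for tshb.S, which turned without control replicate 2 of NF 45. Between stages in thioridazine tshb.S ranged from -0.0849 to 0.32. For the difference between the stage effects the ranges were -0.26 to 0.52 for pomc.S, -0.24 to 0.68 for cga.L, -0.32 to 0.61 for cga.S and -0.31 to 0.18 for tshb.S.

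The thyrotropin beta genes rested on 7 to 36 reads a library, so counting error limits the precision of their values. The fit on the libraries of 1 contrast alone could not be made for the average and the stage difference, which use all 12 libraries, and the block within stage could not be fitted between stages.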
